A study of Homo sapiens with 3 samples.

Results

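Sarcospheres of the human osteosarcoma line MNNG/HOS that had been grown with TGF-beta1 were compared directly with sarcospheres of the same line that had been grown under hypoxia. Sarcospheres grow in suspension when sarcoma cells are kept without serum, a culture meant to favour cells with stem-like properties. The comparison took 2 of the 3 arrays of the study and 7941 of 14836 named genes, namely all genes that reached the median gene value of the array on which they were brighter (402 with TGF-beta1 and 427 under hypoxia, called the floor below). The last gene kept read 402 and the brightest gene left out read 427 on its brighter array. The rule used intensity and not the size of the difference, but it was chosen with earlier results of these data known. Of the 7941 genes, 6893 reached the median on both arrays, and the others passed only through the array on which they were brighter.

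All cultures held the same line, a chemically transformed derivative of HOS, in serum-free DMEM/F12 medium, and the suspended spheres were taken after 5 days. TGF-beta1 was present at 4 ng/mL in the first culture. The second stood in a hypoxic environment whose oxygen level the labels do not give. The third culture had neither. Its values are printed for reference and entered no difference. Total RNA of each was labelled with Cy3 and hybridised to 1 NimbleGen expression array, which reports a brightness (intensity) per transcript feature. With 1 culture and 1 array per condition of 1 cell line there was no replicate error and no test, so higher and lower describe these arrays only. Whether a difference exceeds the spread between cultures is unknown.

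TGF-beta1 is a secreted ligand that signals through a pair of serine/threonine kinase receptors to SMAD2 and SMAD3, which enter the nucleus with SMAD4. Its target genes include inhibitors of the pathway itself, matrix proteins and regulators of adhesion, and its effect on division ranges from arrest in most epithelial cells to growth in some mesenchymal tumours. Under low oxygen the prolyl hydroxylases that mark the alpha subunits of hypoxia-inducible factor (HIF) for destruction lose activity, and HIF then induces genes for angiogenesis, glycolysis, iron handling and pH control.

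The arrays resembled each other closely. Across the 38572 features the log2 intensities had a Pearson correlation of 0.956, which is a description across features of 2 arrays. No intensity was below 50, and there were no detection calls. Of 6 measured markers of the line 5 were above the floor. Among these, SPP1 was below the median of the TGF-beta1 array, at 214 against 402. VIM, the mesenchymal intermediate filament, read 34423 with TGF-beta1 and 30847 under hypoxia. ALPL, the bone alkaline phosphatase, was near the lowest value in both, at 71.9 and 63.4. Of 13 measured markers of blood and immune cells only CD68 was above the floor, and none of 6 endothelial markers was. Of 7 markers of neurons and liver 2 were above it, the tubulin TUBB3 at 8467 and 7659.8 and the protease inhibitor SERPINA1 at 1363 and 2193, and their part in the results was not tested. The endothelial markers spanned 57.1 to 170 with TGF-beta1 and 56.2 to 119 under hypoxia.

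Most genes differed little. In what follows, 3 intensities in a row are those with TGF-beta1, under hypoxia and untreated, and a signed value in brackets after a gene is its log2 difference, TGF-beta1 minus hypoxia. The median difference was 0.0083 over the 7941 genes, and 5681 of them (71.5%) lay within 1.5-fold. At 2-fold or more, 259 genes (3.26%) were higher with TGF-beta1 and 455 genes (5.73%) were lower. At 3-fold these numbers were 53 (0.667%) and 135 (1.7%). At the 1.5-fold limit used for members of gene lists, 1047 genes (13.2%) were higher and 1213 (15.3%) lower. These percentages are the background for each list below. The excess of lower genes depended on scaling: 36.3% of the 2-fold differences were in the higher direction with the values as deposited, and 49.9% (360 higher, 361 lower) after the medians of both arrays were made equal, a shift of 0.09 on the log2 scale.

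Large differences were more common among dim genes. For 139 of the 259 higher genes and 239 of the 455 lower genes the dimmer array was below its median. Of all 7941 genes, 6893 were at or above the median on both arrays. A large difference itself lowers the dimmer array, so the 139 and 239 alone do not show that dim genes differ more. Among the 1986 dimmest genes above the floor 5.94% differed by 2-fold or more upwards and 8.61% downwards, against 2.02% and 2.92% among the 1985 brightest. Features of 1 gene were also compared, starting from genes whose first feature differed by 2-fold or more, whatever the gene mean. The second feature differed by at least 1.5-fold in the same direction for 9 of 22 such genes upwards and 36 of 48 downwards. The SD of the difference between features of a gene had a median of 0.28 on the log2 scale over 700 genes, a measure that includes real differences between transcripts but no variation between cultures. The untreated culture lay nearer to hypoxia than to TGF-beta1 for 189 of the 259 higher genes (73.0%) and for 324 of the 455 lower genes (71.2%), against 56.4% of all genes above the floor.

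**Figure D1:**
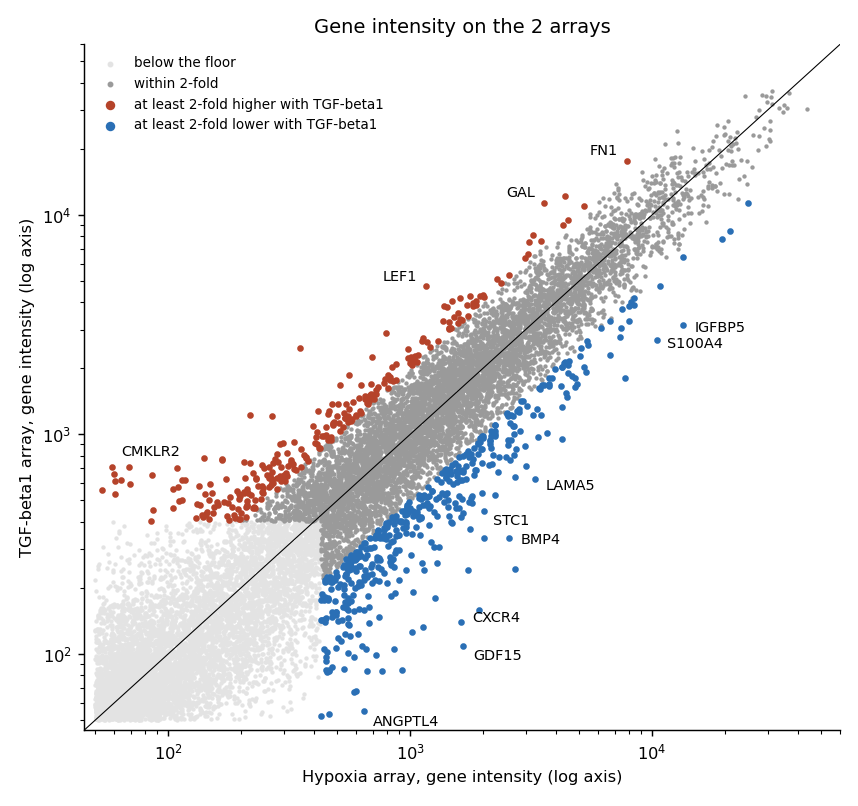
Gene intensity on the hypoxia array (horizontal, log axis) against the TGF-beta1 array (vertical, log axis). Each point is a gene, the line marks equal intensity, red points are the 259 genes at least 2-fold higher with TGF-beta1, blue points the 455 at least 2-fold lower, dark grey points the others above the floor and light grey points the genes below it. ANGPTL4, GDF15 and CXCR4 lie far below the line, and CMKLR2 far above it.

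The 5 lists with the highest medians were all of cell division, and their genes were mostly higher with TGF-beta1. Across them 98 genes were above the floor, 92 of them were brighter with TGF-beta1 and 58 were at least 1.5-fold higher, against 13.2% of all genes. The CDK6 gene alone was at least 1.5-fold lower. The median difference of the 98 genes was 0.71, against 0.0083 over all genes. The differences were moderate in size and spread over the whole sequence from origin licensing to chromosome segregation.

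**Figure D2:**
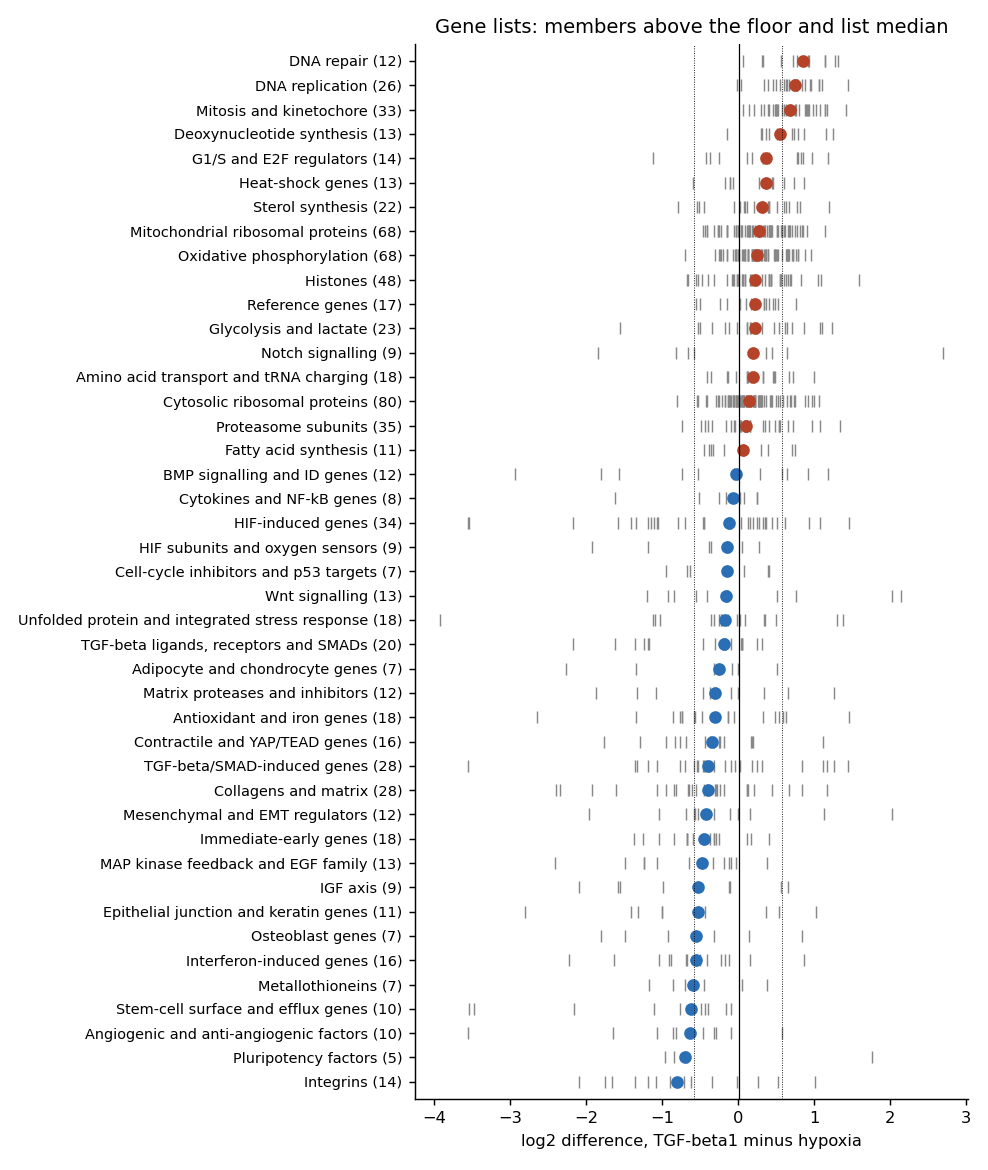
Log2 difference, TGF-beta1 minus hypoxia, for the members above the floor of each gene list (grey ticks) with the list's median (dot, red above 0 and blue below). The dotted lines mark 1.5-fold, the number of members stands in brackets and the lists are ordered by median, with the DNA repair list highest at a median of 0.85 and the integrin list lowest at -0.80.

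DNA replication genes had a median difference of 0.75, with 19 of 26 at least 1.5-fold higher and none lower. ORC1, the largest subunit of the complex that marks replication origins, read 711 with TGF-beta1, 262 under hypoxia and 276 untreated, a log2 difference of 1.44. CDC45, which joins the MCM helicase at firing origins, read 4323, 2008 and 2228 in the same order, with a difference of 1.11. For both genes the hypoxia and untreated arrays read alike and the TGF-beta1 array stood above them. MCM4, a subunit of the helicase, read 8947 with TGF-beta1, 4287 under hypoxia and 7026 untreated (1.06), so here the hypoxia array was the one that stood apart. At the other end of the list, FEN1, the nuclease that trims Okazaki fragments, read 2959 with TGF-beta1 and 2975 under hypoxia.

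Genes that supply deoxynucleotides had a median difference of 0.56, with 6 of 13 at least 1.5-fold higher and none lower. RRM2, the regulated subunit of ribonucleotide reductase, read 1458 with TGF-beta1, 615 under hypoxia and 606 untreated (1.25). DUT, which removes dUTP, read 806, 363 and 411 (1.15). The DNA repair list had a median of 0.85, with 8 of 12 at least 1.5-fold higher and none lower. It included the exonuclease EXO1 (585 with TGF-beta1 and 235 under hypoxia), BRCA2, which acts in repair by homologous recombination (711 and 293), and FANCI of the crosslink repair pathway (1597 and 722).

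All 33 mitosis and kinetochore genes above the floor were brighter with TGF-beta1, 19 of them by at least 1.5-fold, with a median of 0.68. CDK1, the kinase that drives entry into mitosis, read 1527 with TGF-beta1, 692 under hypoxia and 745 untreated. Its 2 features gave a difference of 1.14 with an SD of 0.11 between them. Its partner CCNB1 read 4237, 2014 and 2248 in the same order (1.07). MKI67, the protein coat of mitotic chromosomes used as a proliferation marker, read 2278, 1149 and 914 (0.99). NUSAP1, which bundles spindle microtubules, read 3424, 1523 and 2179.7 (1.17). FOXM1, the transcription factor that induces many of these genes, differed by 0.15, and NUF2 of the kinetochore by 0.07. PTTG1, the securin that restrains separase, had the largest difference of the list at 1.42 (3793 with TGF-beta1 and 1422 under hypoxia). PTTG1 and PTTG2 are near-identical copies, so the reading of each is uncertain.

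**Figure D3:**
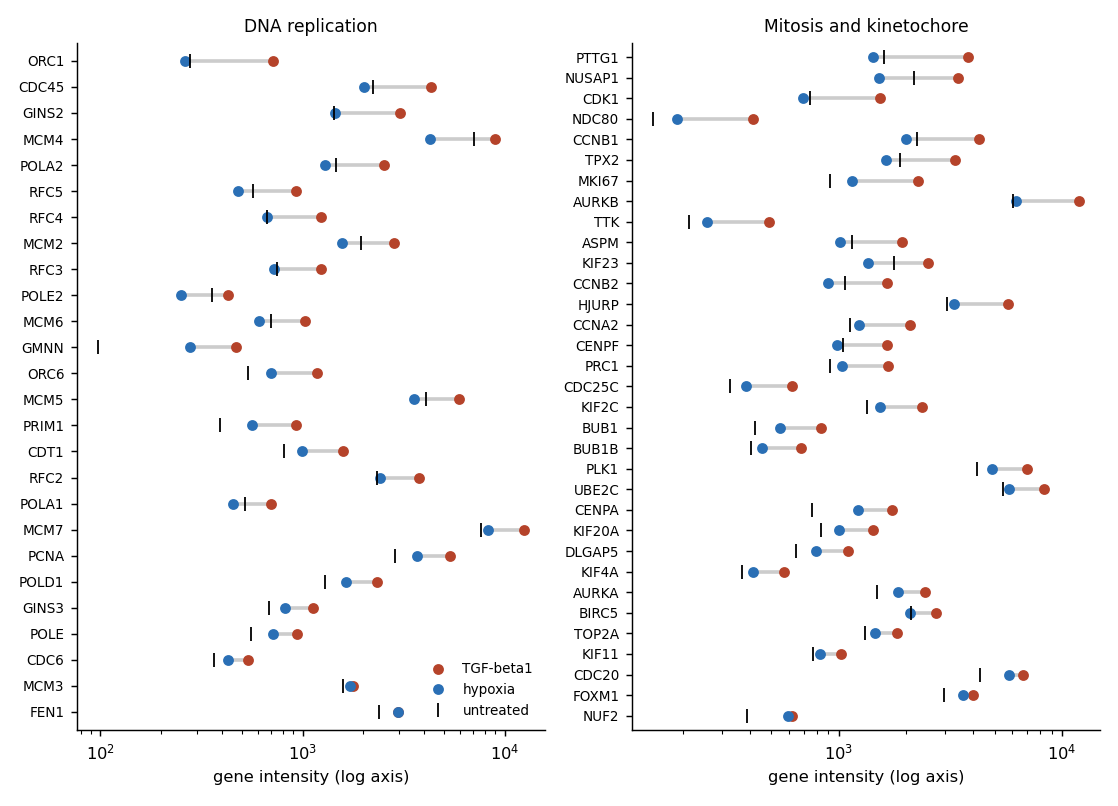
Gene intensity (log axis) of the DNA replication and mitosis genes above the floor, with TGF-beta1 (red), hypoxia (blue) and untreated (black bar), ordered by the difference. The red point lies to the right of the blue one for every gene in both panels except FEN1.

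Regulators of the G1/S step differed in both directions, with a median of 0.37, 6 of 14 at least 1.5-fold higher and 1 lower. E2F7, a repressor of the E2F family that is itself made in S phase, read 742 with TGF-beta1, 326 under hypoxia and 410.4 untreated (1.18). CDK6, a cyclin D-dependent kinase, was the lower member at 262, 569.7 and 393 (-1.12). CCND1, its cyclin, differed by -0.25. Among the inhibitors and p53 targets, 3 of 7 were at least 1.5-fold lower with TGF-beta1 and none was higher, with a median of -0.14. They were CDKN1A, the CDK inhibitor p21, at 3370.1 with TGF-beta1 and 5365 under hypoxia (-0.67), the oxidoreductase TP53I3 (-0.95) and the antiproliferative BTG1 (-0.63). Of the 7, 3 were brighter with TGF-beta1 by less than 1.5-fold, among them the p53 targets BBC3 (0.41) and BAX (0.40). The cultures were measured in bulk, so fewer dividing cells and less of the cell division transcripts per cell cannot be told apart.

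Promoters of the mitotic genes illustrate how the lists differ in sequence. Short motifs were searched on both strands in the 250 bases before each start listed in RefSeq (GRCh38.p14), which covered 6590 of the 7941 genes. CCAAT, the core bound by the NF-Y factor, was in 27 of 33 promoters of the mitosis list (81.8%), 18 of 31 of the replication list (58.1%), 33.6% of the promoters of all genes above the floor and 32.0% of all 35116 listed promoters. TTTGAA, the core of the cell cycle homology element, was in 17 of 33 mitosis promoters (51.5%) and in 0 of 31 replication promoters, against 8.30% for genes above the floor and 13.3% for all promoters. A high share of CCAAT was not particular to the mitosis list. The motif was in 18 of 22 sterol synthesis promoters (81.8%) and 42 of 47 histone promoters (89.4%). TTTGAA was in 16 of 47 histone promoters (34.0%). Over the 2-fold differences, CCAAT was in 41.3% of the promoters of higher genes and 26.4% of those of lower genes. A match describes the letters and is no measured binding site. The promoters of MKI67 (chr10:128126424-128126673, minus strand), ASPM (chr1:197146670-197146919, minus strand) and KIF23 (chr15:69414099-69414348, plus strand) are shown 5′ to 3′ along the gene because each holds both motifs. Capitals mark CCAAT or its complement ATTGG, and TTTGAA or its complement TTCAAA, and in the last run of MKI67 the motifs overlap.
MKI67: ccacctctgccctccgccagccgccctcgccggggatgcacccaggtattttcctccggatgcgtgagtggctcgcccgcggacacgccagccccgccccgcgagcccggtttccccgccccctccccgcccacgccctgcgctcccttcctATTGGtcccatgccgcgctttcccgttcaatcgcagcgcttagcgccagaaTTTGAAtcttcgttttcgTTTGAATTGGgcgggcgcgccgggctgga
ASPM: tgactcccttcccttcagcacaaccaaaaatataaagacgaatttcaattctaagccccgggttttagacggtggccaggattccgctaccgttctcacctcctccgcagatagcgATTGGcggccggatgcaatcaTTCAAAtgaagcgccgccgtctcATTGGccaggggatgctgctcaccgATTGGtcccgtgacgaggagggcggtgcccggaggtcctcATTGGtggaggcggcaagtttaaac
KIF23: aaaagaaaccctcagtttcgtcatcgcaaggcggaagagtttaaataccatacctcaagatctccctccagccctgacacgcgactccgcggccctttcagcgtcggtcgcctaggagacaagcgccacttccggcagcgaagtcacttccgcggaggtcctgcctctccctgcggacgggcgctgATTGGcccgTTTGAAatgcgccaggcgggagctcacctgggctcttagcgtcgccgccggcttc

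ASPM, a spindle pole protein, read 1913 with TGF-beta1, 1016 under hypoxia and 1148 untreated (0.91). KIF23, the kinesin of the central spindle, read 2514, 1349.6 and 1776 (0.90). They were thus 1.88 and 1.86 times as bright with TGF-beta1 as under hypoxia, and MKI67 was 1.98 times as bright.

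Most genes of the respiratory chain and of ribosomes lay within 1.5-fold, with medians near that of 17 reference genes (0.22). The oxidative phosphorylation list had a median of 0.25, with 15 of 68 genes higher and 1 lower at 1.5-fold. ATP5F1A, the catalytic-head alpha subunit of ATP synthase, read 11004 with TGF-beta1 and 6357 under hypoxia (0.79), and COX6C of cytochrome oxidase read 4389 and 2380.4 (0.88). Mitochondrial ribosomal proteins had a median of 0.28, with 14 of 68 at least 1.5-fold higher and none lower, MRPS9 leading at 1.15. Against 13.2% of all genes higher and 15.3% lower, 11 of 80 cytosolic ribosomal proteins were higher and 1 lower, with a median of 0.15. Among them RPS19 differed by 1.06 and RPS6 by 0.97, and these abundant families have many near-identical copies. Of the reference genes, chosen for stability, 1 of 17 was higher. Histone genes had a median of 0.23, with 9 of 48 higher and 2 lower. H2AX, the variant phosphorylated at DNA breaks, read 4899 with TGF-beta1 and 2363 under hypoxia (1.05), and the clustered histone genes are near-identical copies.

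Glycolysis genes differed by enzyme, with a median of 0.22, 7 of 23 at least 1.5-fold higher with TGF-beta1 and 1 lower. HK2, the inducible hexokinase of the first step, read 762 with TGF-beta1, 323 under hypoxia and 354 untreated (1.24). PGK1, a kinase of the ATP-yielding phase, read 6623, 3074 and 4244 (1.11). Both are known HIF targets that were counted here and not in the HIF-induced list below, and both were brighter with TGF-beta1 than under hypoxia. PDK2, a kinase that closes pyruvate dehydrogenase, was the lower gene at 298, 874 and 559 (-1.55), while its relative PDK1 went the other way at 617, 292 and 416 (1.08). ENO1, GAPDH and ALDOA, among the brightest glycolytic genes, differed by -0.17, 0.22 and 0.12.

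Sterol synthesis genes had a median of 0.32, with 6 of 22 at least 1.5-fold higher and 1 lower. HMGCS1, which makes HMG-CoA, read 1497 with TGF-beta1, 652 under hypoxia and 528 untreated (1.20). TM7SF2, a sterol reductase, was the lower member (-0.79), and IDI1, which isomerises the isoprenoid unit, differed by 0.08, so the pathway did not differ uniformly. Fatty acid synthesis genes had a median of 0.06, with 2 of 11 higher, namely the acyl-CoA synthetase ACSL3 (0.75) and the elongase ELOVL6 (0.72). Proteasome subunits had a median of 0.10, with 5 of 35 higher and 1 lower. PSMD2, a scaffold of the regulatory particle, stood out at 8129.6 against 3214 (1.34).

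Of the genes that sense oxygen, EPAS1, the HIF-2 alpha subunit, stood apart. It read 438 with TGF-beta1, 1654 under hypoxia and 539 untreated, 3.78-fold lower with TGF-beta1 than under hypoxia (-1.92), so only the hypoxia array was high. EGLN3, a prolyl hydroxylase that is itself a HIF target, read 524, 1192 and 923 (-1.18). HIF1A averaged 1469, 1619 and 1619.8 (-0.14), but its 2 features differed by -0.77 and 0.49, in opposite directions. HIF alpha subunits are controlled mainly at the protein level, which arrays do not read. The other hydroxylases, VHL and the ARNT partners lay within 1.5-fold, and 2 of the 9 genes of the list were at least 1.5-fold lower.

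HIF-induced genes differed in both directions. With TGF-beta1, 13 of the 34 above the floor were lower by 1.5-fold or more, against 15.3% of all genes, and 4 were higher, with a median of -0.12. At 2-fold 11 were lower and 2 higher. The list leaves out some HIF targets counted with glycolysis, among them HK2 and PGK1, which were higher. LDHA (0.62), PDK1 (1.08) and SLC2A1 (0.16) were counted in both lists, the first 2 among the 4 higher genes here. The largest differences were of secreted factors and a receptor. ANGPTL4, an inhibitor of lipoprotein lipase, read 54.8 with TGF-beta1, 645 under hypoxia and 156 untreated (-3.56), the first value being close to the lowest on the array, so the 11.8-fold difference may be understated. CXCR4, the receptor of CXCL12, read 139, 1624 and 745 (-3.54). STC1, a secreted glycoprotein hormone, read 449.6, 2019 and 658 (-2.17). All 3 were highest under hypoxia and lowest with TGF-beta1.

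Several other HIF targets were high on the hypoxia array alone. ADM, the vasodilator adrenomedullin, read 539 with TGF-beta1, 1424 under hypoxia and 626 untreated (-1.40). HMOX1, heme oxygenase, read 506, 1284 and 528 (-1.34). PLOD2, which hydroxylates collagen lysines, read 799, 1652 and 923 (-1.05). VEGFA, the main angiogenic ligand, was less different at 5426, 7492 and 5168 (-0.47). CITED2, which competes with HIF for its coactivator, read 730.0, 2189 and 1347 (-1.58), so its untreated value lay between. TXNIP, the thioredoxin-binding protein, was brightest in the untreated culture, at 2081, 4471 and 11330.3 (-1.10). CA9, a further hypoxia marker, was not analysed here.

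A smaller group of HIF targets was higher with TGF-beta1. TFRC, the transferrin receptor, read 1086 with TGF-beta1, 396 under hypoxia and 344 untreated (1.45). P4HA1, a collagen prolyl hydroxylase, read 1165, 610.1 and 741 (0.93). LDHA, which makes lactate, read 3253, 2109.9 and 2035 (0.62). For TFRC and LDHA the hypoxia array was near the untreated one, and for P4HA1 it was the lowest of the 3. The glucose transporter SLC2A1 (0.16) and the stress protein NDRG1 (-0.13) hardly differed.

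The core of the HIF response element, ACGTG, was in 20 of 42 promoters of these HIF-induced genes (47.6%), against 23.0% for all genes above the floor and 18.5% of all promoters. It was in 18.5% of the promoters of the genes at least 2-fold higher with TGF-beta1 and in 20.2% of those of the lower genes. The promoters of ANGPTL4 (chr19:8363905-8364154, plus strand), WSB1 (chr17:27293864-27294113, plus strand) and PLOD2 (chr3:146161185-146161434, minus strand) are shown, all 3 genes being dimmer with TGF-beta1 than under hypoxia by more than 2-fold. Capitals mark ACGTG or its complement CACGT, and the palindrome in WSB1 holds both.
ANGPTL4: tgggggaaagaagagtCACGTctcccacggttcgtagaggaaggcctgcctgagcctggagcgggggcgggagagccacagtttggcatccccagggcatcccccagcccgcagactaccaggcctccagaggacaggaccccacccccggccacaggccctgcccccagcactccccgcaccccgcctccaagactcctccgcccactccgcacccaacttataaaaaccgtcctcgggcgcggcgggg
WSB1: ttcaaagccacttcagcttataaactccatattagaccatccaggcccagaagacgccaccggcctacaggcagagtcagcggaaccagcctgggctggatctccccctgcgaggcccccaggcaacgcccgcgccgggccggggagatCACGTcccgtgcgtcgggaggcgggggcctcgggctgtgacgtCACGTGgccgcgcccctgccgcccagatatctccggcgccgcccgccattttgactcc
PLOD2: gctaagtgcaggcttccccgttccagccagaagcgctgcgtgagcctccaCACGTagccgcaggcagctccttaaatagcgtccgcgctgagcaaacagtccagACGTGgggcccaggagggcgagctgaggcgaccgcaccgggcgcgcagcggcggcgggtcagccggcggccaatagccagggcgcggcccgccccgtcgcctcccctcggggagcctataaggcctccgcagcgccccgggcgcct

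WSB1, a substrate receptor of an E3 ubiquitin ligase, was among the brightest of the HIF targets, at 11301 with TGF-beta1, 24906 under hypoxia and 17061 untreated (-1.14). HIF can also act from distant enhancers, which this window does not cover.

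**Figure D4:**
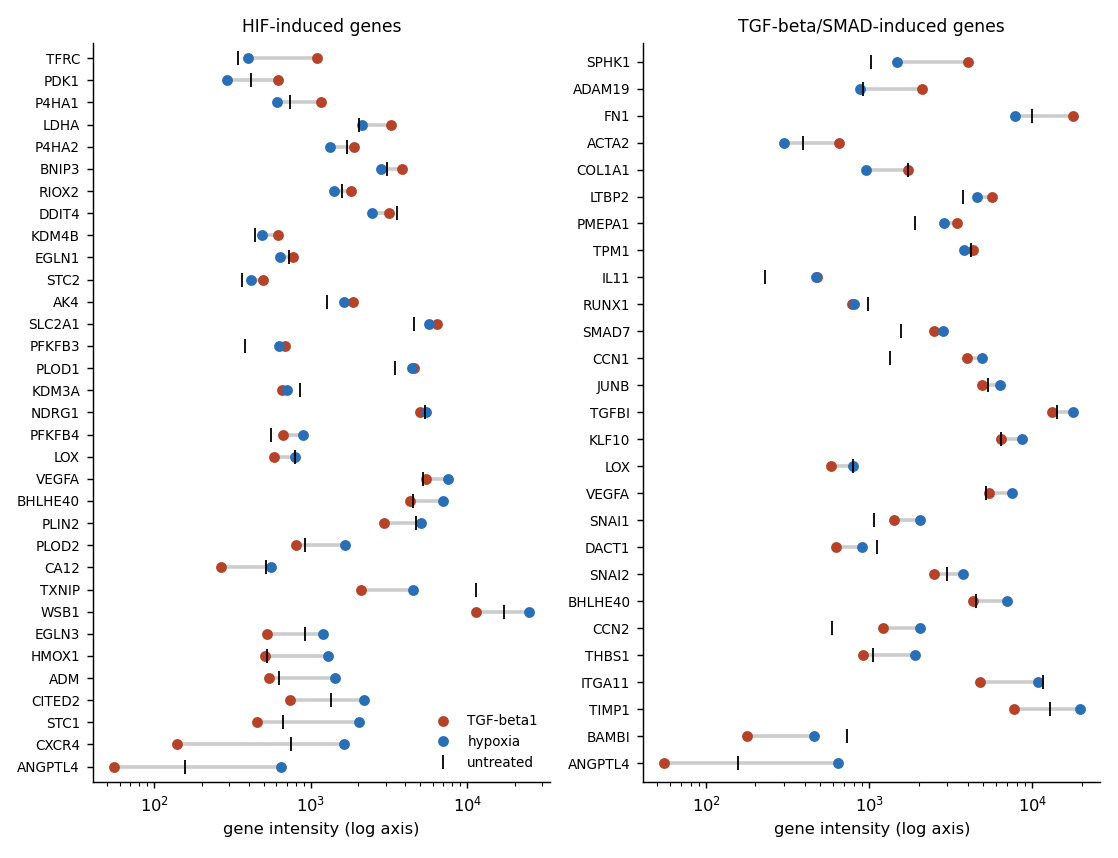
Gene intensity (log axis) of HIF-induced genes and TGF-beta/SMAD-induced genes above the floor (1 gene of both lists not shown), with TGF-beta1 (red), hypoxia (blue) and untreated (black bar), ordered by the difference. In both panels ANGPTL4 has the widest gap, with red at 54.8 and blue at 645.

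The machinery of TGF-beta signalling itself was mostly lower with TGF-beta1 than under hypoxia or nearly equal, with a median of -0.18, 6 of 20 at least 1.5-fold lower and none higher. SMAD3, a receptor-activated SMAD, read 1665 with TGF-beta1, 3744 under hypoxia and 2629 untreated (-1.17), whereas SMAD2 differed by 0.05 and SMAD4 by 0.05. TGFBR3, the co-receptor betaglycan, read 466, 1433 and 1028 (-1.62). TGFBR2, the ligand-binding receptor, read 3082, 3002 and 4216 (0.04). Thus TGFBR2 was nearly equal on the compared arrays while the co-receptor was not. LTBP1 (-1.24) and LTBP3 (-1.19), which hold latent ligand in the matrix, were lower, and LTBP2 was not (0.31). TGFB1 itself read 19775 with TGF-beta1, 27329.8 under hypoxia and 18595 untreated (-0.47).

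Inhibitors of the pathway differed from one another. SMAD7, the inhibitory SMAD that TGF-beta itself induces, read 2503 with TGF-beta1, 2811 under hypoxia and 1566 untreated (-0.17), so both cultures were brighter than the untreated one and near each other. PMEPA1, another induced inhibitor, had the same pattern at 3428, 2886 and 1917 (0.25). SMAD6, the inhibitory SMAD of the BMP branch, read 114, 516 and 318 (-2.17). BAMBI, a decoy receptor, read 178, 456 and 734 (-1.35). SMAD6 and BAMBI were lowest with TGF-beta1.

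TGF-beta/SMAD-induced genes did not stand higher as a group in the culture that received the ligand. Their median was -0.39, with 5 of 28 at least 1.5-fold higher and 7 lower. CCN2, connective tissue growth factor, read 1215 with TGF-beta1, 2057 under hypoxia and 592 untreated (-0.76). Its relative CCN1 read 3941, 4918 and 1337 (-0.32). Both genes were brighter in both cultures than without treatment, and highest under hypoxia.

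The 5 targets at least 1.5-fold higher with TGF-beta1 were SPHK1, ADAM19, ACTA2, FN1 and COL1A1. SPHK1, which makes sphingosine-1-phosphate, read 4050.1 with TGF-beta1, 1486 under hypoxia and 1018 untreated (1.45). ADAM19, a membrane metalloprotease, read 2097, 875 and 914 (1.26). ACTA2, smooth muscle actin, read 653, 301 and 393 (1.12). In each of these the TGF-beta1 array alone was high. FN1, fibronectin, read 17679, 7844 and 9906 (1.17), its features having an SD of 0.60, and COL1A1, a chain of type I collagen, read 1722, 959 and 1715 (0.84), low under hypoxia alone. Among the lower targets, TIMP1, an inhibitor of matrix metalloproteases, read 7753, 19464 and 12746 (-1.33), and ITGA11, a collagen receptor subunit, differed by -1.19.

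In the BMP branch, ligands and antagonists differed in both directions, with a median of -0.03, 3 of 12 at least 1.5-fold higher and 4 lower. BMP4, a secreted ligand, read 337 with TGF-beta1, 2570.3 under hypoxia and 996 untreated, 7.62-fold lower (-2.93). NOG, an antagonist that traps BMP ligands, read 158, 552 and 396 (-1.81). GREM1, another antagonist, went the other way at 3576, 1578 and 1476 (1.18). ID3, a BMP-induced inhibitor of helix-loop-helix factors, was high under hypoxia alone at 199, 591 and 198 (-1.57), and ID1 was likewise highest under hypoxia (-0.73). BMP7, a further ligand, was 0.92.

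Immediate-early genes, which respond to growth factors and stress within minutes, were mostly dimmer with TGF-beta1. At 1.5-fold, 8 of the 18 above the floor were lower and none was higher, 15 were dimmer, and the median was -0.45. FOSB, a partner of JUN in AP-1, read 470.3 with TGF-beta1, 1214 under hypoxia and 338 untreated (-1.37). NR4A1, an orphan nuclear receptor, read 477, 1134 and 450.4 (-1.25). In both the hypoxia array alone was high. MYC read 935, 1485 and 478 (-0.67), lowest in the untreated culture. FOSL1, another AP-1 member, differed by 0.12.

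The list that joins feedback inhibitors of MAP kinase signalling with EGF family ligands and receptors showed the same direction. Of its genes above the floor 6 of 13 were at least 1.5-fold lower and none higher, with a median of -0.48. SPRY1, a Sprouty inhibitor of receptor tyrosine kinases, read 84.4 with TGF-beta1, 449 under hypoxia and 152 untreated (-2.41). SPRY4, of the same family, read 6408, 13424 and 5650.4 (-1.07). DUSP1, a MAP kinase phosphatase, read 268, 754 and 472 (-1.49). The ligand EREG, which activates EGFR, was also lower (-1.24), while the phosphatase DUSP6 hardly differed (-0.12) and the 4 features of EGFR did not share a direction. Contractile and YAP/TEAD genes had a median of -0.35, with 6 of 16 lower and ACTA2 alone higher. AJUBA, a LIM protein of cell junctions, read 424, 1442 and 972 (-1.76), and the Hippo component AMOTL2 was high under hypoxia alone at 475, 1164 and 349 (-1.29).

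Cell adhesion receptors had the lowest median of all lists, -0.80. Of 14 integrin, syndecan and glypican genes 9 were at least 1.5-fold lower with TGF-beta1, against 15.3% of all genes, and 1 was higher. ITGB4, the laminin receptor subunit of hemidesmosomes, read 528 with TGF-beta1, 2251 under hypoxia and 1479 untreated (-2.09, with an SD of 0.48 over 3 features). ITGA7, another laminin receptor subunit, read 765, 2583 and 1455 (-1.75). ITGAV, which pairs with several beta subunits to bind RGD ligands and latent TGF-beta, read 923, 1951 and 1332 (-1.08). In these 3 the untreated array lay between the others. ITGB1, the common beta subunit, was brighter with TGF-beta1 at 5446, 3769 and 5273 (0.53). SDC1, a heparan sulfate proteoglycan, was the higher member at 1041, 514 and 284 (1.02).

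Matrix genes had a median of -0.40, with 11 of 28 at least 1.5-fold lower and 3 higher. The laminin chains differed most. LAMA5, the alpha chain of laminins in mature basement membranes, read 627 with TGF-beta1, 3283 under hypoxia and 1821 untreated (-2.39). LAMA4, the alpha chain of vascular and muscle laminins, read 147, 745 and 806 (-2.34), low with TGF-beta1 alone. The beta and gamma chains LAMB1 (0.44) and LAMC1 (0.12) lay within 1.5-fold. COL12A1, a fibril-associated collagen, was likewise low with TGF-beta1 alone, at 393, 1483 and 1891 (-1.92). The collagen IV and VI chains lay within 1.5-fold except COL6A1 (-0.65). Of the proteases and their inhibitors 3 of 12 were lower and 2 higher, with a median of -0.30. TIMP3, a matrix-bound inhibitor, read 1009.8, 3686 and 2468 (-1.87), and the urokinase PLAU was lower (-1.08) while its receptor PLAUR was higher (0.66).

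**Figure D5:**
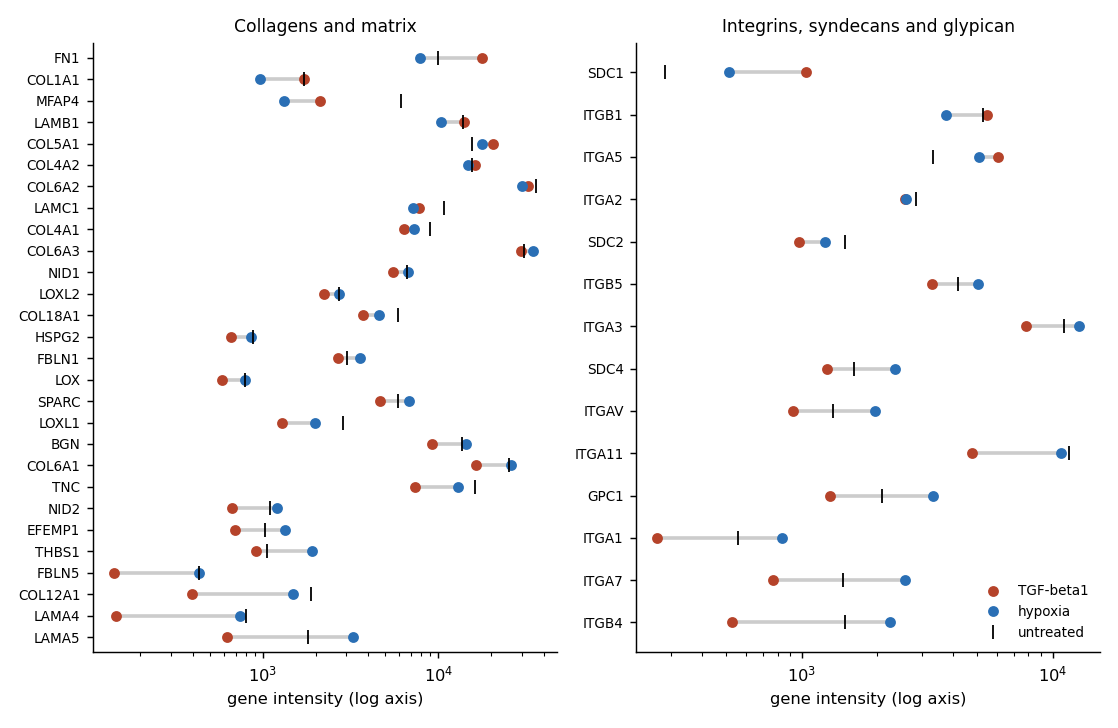
Gene intensity (log axis) of matrix genes (left) and of integrin, syndecan and glypican genes (right) above the floor, with TGF-beta1 (red), hypoxia (blue) and untreated (black bar), ordered by the difference. FN1 and SDC1 head the panels with red to the right, and LAMA5 and ITGB4 end them with blue to the right by 5.24-fold and 4.26-fold.

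Regulators of the mesenchymal state did not differ as a block, with a median of -0.42, 2 of 12 at least 1.5-fold higher and 3 lower. LEF1, the nuclear partner of beta-catenin, read 4732 with TGF-beta1, 1164 under hypoxia and 2108 untreated (2.02). PRRX1, a homeobox factor of limb and bone mesenchyme, read 598, 272 and 134 (1.14). S100A4, a calcium-binding protein linked to motility, read 2679.7, 10433 and 5789.6 (-1.96). SNAI1 (-0.53), SNAI2 (-0.58) and TWIST1 (-0.69), transcription factors of epithelial-mesenchymal transition, were dimmer with TGF-beta1, and ZEB1 read 1727 and 1732. Among junction and keratin genes 5 of 11 were lower and 1 was higher. JUP, plakoglobin, read 2776, 7368 and 5125 (-1.41), and DSP, the desmosomal linker, read 1081, 529 and 921 (1.03). KRT81 had the largest difference (-2.80), but hair keratins are close copies and its reading is uncertain.

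Genes of bone and related lineages were few. At 1.5-fold, 3 of the 7 osteoblast genes above the floor were lower and 1 was higher. SPP1, osteopontin, averaged 214 with TGF-beta1, 745 under hypoxia and 473 untreated (-1.80), a value that moved to -1.05 when the median of its features was taken. DLX5, a homeobox factor that induces RUNX2, read 378, 1061 and 1181 (-1.49), low with TGF-beta1 alone. RUNX2, the master factor of osteoblasts, differed by 0.14. Of 7 adipocyte and chondrocyte genes 2 were lower and none was higher. PPARG, the adipocyte nuclear receptor, was low with TGF-beta1 alone at 93.2, 448 and 422 (-2.26).

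Genes used as stem-cell surface markers or drug efflux pumps were dimmer with TGF-beta1 in 10 of 10 cases, 5 of them by at least 1.5-fold, with a median of -0.62. Over all measured members, dim ones included, the median was -0.19. ABCC3, an organic anion pump, read 244 with TGF-beta1, 2702 under hypoxia and 1324 untreated, 11.1-fold lower (-3.47). CD24, a glycosylphosphatidylinositol-anchored surface protein, read 949.9, 4226 and 3577 (-2.15). NT5E, the ecto-nucleotidase CD73 of mesenchymal cells, read 1604, 3441 and 2572 (-1.10). The hyaluronan receptor CD44 (-0.43) and the pump ABCB1 (-0.40) lay within 1.5-fold. Of 5 pluripotency factors, POU5F1 (OCT4) was higher at 501, 148 and 315 (1.76), and POU5F1 has many near-identical pseudogenes, so this reading is uncertain. SOX2 was lower at 459.7, 898 and 802 (-0.97), and so were SALL4 (-0.69) and KLF4 (-0.84).

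Signalling axes other than TGF-beta and HIF also differed. In the IGF axis 4 of 9 genes were at least 1.5-fold lower and 1 was higher. The binding protein IGFBP5, which is abundant in bone, read 3152 with TGF-beta1, 13459 under hypoxia and 6155 untreated (-2.09). IGFBP4, which sequesters IGF, read 2291, 6723 and 5189 (-1.55). IGFBP7 went the other way (0.66), and IGF2, the bright ligand of the set, read 16208 and 17362, its 2 features differing in opposite directions. In the Notch list 2 of 9 were higher and 3 lower. There HEYL, a repressor induced by Notch, read 704, 109 and 91.0 (2.70), and the ligand JAG2 read 281, 1006 and 331 (-1.84). In the Wnt list 3 of 13 were higher and 3 lower, and the receptor FZD9 read 462, 105 and 53.1 (2.14), while the secreted inhibitor DKK1 was highest under hypoxia (242, 556 and 112). In the list that joins angiogenic and anti-angiogenic factors none of 10 was higher and 5 were lower at 1.5-fold. The lower ones were ANGPTL4, the ephrin ligand EFNA1 (-1.65), the VEGF relative PGF (-0.81) and the angiogenesis inhibitors THBS1 (-1.06) and SERPINF1 (-0.86), while the lymphangiogenic ligand VEGFC was brighter (0.58).

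Interferon-induced genes had a median of -0.55, with 7 of 16 at least 1.5-fold lower and HERC5 alone higher (0.87). IFI44L, a type I interferon target, read 121 with TGF-beta1, 565 under hypoxia and 388 untreated (-2.23). STAT2, which transmits the interferon signal, read 1423, 2661 and 2386 (-0.90). In both the TGF-beta1 array was the low one. The class I genes HLA-B (-0.56) and B2M (-0.55) were dimmer by less than 1.5-fold, and HLA genes are polymorphic close relatives. Cytokine and NF-kB genes had a median of -0.06, with 1 of 8 lower, the macrophage growth factor CSF1 (-1.61).

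Of 18 genes of the unfolded protein and integrated stress responses 2 were higher and 4 lower at 1.5-fold, with a median of -0.17. The same counts held at 2-fold, where 3.26% of all genes were higher and 5.73% lower. GDF15, a secreted stress factor, had the largest lower difference of all genes above the floor, at 109 with TGF-beta1, 1647 under hypoxia and 315 untreated, 15.1-fold (-3.92). DDIT3 (CHOP), a factor of unresolved stress, read 528, 1142 and 521 (-1.11), and PPP1R15A, which restores translation, read 2128, 4347 and 2021 (-1.03). Both were high under hypoxia alone. The higher members were PSAT1 and ASNS. PSAT1 of serine synthesis read 4184, 1602 and 2343 (1.39), and ASNS, asparagine synthetase, read 1694, 689.7 and 928 (1.30). PHGDH, which starts serine synthesis, hardly differed (0.10). ATF4, a main factor of the integrated stress response, differed by -0.21, but its 2 features went in opposite directions. Genes for amino acid transport and tRNA charging had 3 of 18 higher and none lower, with AARS1, which charges alanine tRNA, at 0.99. Of 13 heat-shock genes 3 were higher and 1 lower. The mitochondrial chaperones HSPD1 (0.87) and HSPE1 (0.74) were higher with TGF-beta1 and DNAJB1, an HSP70 co-chaperone, was lower (-0.59). Metallothioneins, which bind zinc, were lower in 4 of 7 cases and never higher at 1.5-fold, MT1F leading at -1.17, though MT1 genes are close copies. Among antioxidant and iron genes 6 of 18 were lower and 3 higher, with SELENOP, the selenium carrier, at 85.6, 534 and 890.5 (-2.64).

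The genes with the largest differences overall were dim on 1 array. On the higher side CMKLR2, a chemerin receptor, read 710.3 with TGF-beta1, 58.8 under hypoxia and 62.8 untreated (3.59). STXBP6, VWA5B1, TRIM40, ZNF165, SYCP2, C5AR1, CNTN5 and LARGE2 read from 53.4 (VWA5B1) to 85.6 (LARGE2) under hypoxia and from 535 (C5AR1) to 708 (ZNF165) with TGF-beta1. Without detection calls, such readings near the lowest value of 50 give no firm size or order of the differences. A brighter case was SPOCK1, a testican proteoglycan, at 1222, 219 and 292 (2.48). On the lower side were GLDN, which clusters channels at nerve nodes (158, 1931 and 987), APOD, a lipocalin (133, 1132 and 1606), the chitinase-like CHI3L1, the integrin ligand EDIL3, the homeobox factor SHOX2 and the lipid hydrolase AOAH. The last 4 read from 52.4 (AOAH) to 84.0 (EDIL3) with TGF-beta1, again near the lowest value. KLRC2 and TPSB2 belong to families of near-identical copies and are uncertain.

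Among genes at or above the median on both arrays, 120 of 6893 (1.74%) were at least 2-fold higher and 216 (3.13%) lower. GAL, the neuropeptide galanin, read 11339.5 with TGF-beta1, 3591 under hypoxia and 3399.7 untreated (1.66). SRPX, a sushi-repeat protein, read 2899, 793 and 582 (1.87). RCC1, the exchange factor of the GTPase Ran, read 1673, 512 and 782 (1.71). EIF4EBP1, the mTOR-controlled repressor of translation initiation, read 3849, 1383 and 1783 (1.48), and BPGM, which makes the phosphoglycerate that lowers oxygen binding of hemoglobin, differed by 1.54. TOMM34 (1.49) and SEC61A2 (1.45) followed, while PTTG2 (1.74), FAM72D (1.69) and LHB (1.47) are members of close families and uncertain. On the lower side SQSTM1, the autophagy receptor p62, read 1799, 7739 and 3967 (-2.11). RDH10 (-2.09), TMT1B (-2.08), PNPLA7 (-1.95) and SOX13 (-1.89) were lower as well.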

How the data were processed

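The authors deposited 1 linear intensity for each transcript feature on each single-colour NimbleGen array, per the labels' protocols. How background, probe summary, normalization and filters were handled, and the genome build, were not given in the sources used here. Features were named from the platform annotation through the Entrez identifier (15623) or from an unversioned RefSeq accession (593, GRCh38.p14), and 22356 were not named. A gene's value was the mean log2 intensity over its features, without a pseudocount. No p-value, SD between cultures or interval was possible with 1 array per condition, and the number of arrays limits the precision.

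The compared genes, the 43 gene lists, the 4 marker lists and the thresholds were chosen with earlier results of these data known. The rule for named genes took the 12 largest differences each way among genes above the floor and among genes at or above the median on both arrays, in both cases with all features in the same direction, the 3 largest per list (6 for the cell-cycle, HIF and TGF-beta lists) and 11 fixed genes. Some genes that the rule takes are not reported here. Genes named beyond it were chosen after their values were seen. The procedure was tested on simulated data. Alternatives were 1.5-fold and 3-fold limits, no floor, a floor on both arrays, median centring, quantile normalization, loess centring, the median over features, agreeing features only, log2(value + 50), every feature as its own row and lists with all measured members. Python 3.11.15, numpy 2.4.6, pandas 2.3.3, statsmodels 0.14.6 and matplotlib 3.10.9 were used.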

Additional observations from a re-analysis of the deposited data

How the results depend on the processing

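The number of genes counted as higher (259) and lower (455) followed the threshold and the genes admitted. It became 1047 and 1213 at 1.5-fold, 53 and 135 at 3-fold, 646 and 1003 without a floor, 120 and 216 with both arrays at or above their median, 694 and 1276 with every feature counted, and 8 and 32 for genes with several features that all differed the same way. Centring and quantile settings kept both counts within 1.5 times, at 360 and 361 with median centring, 316 and 387 with quantile normalization and 290 and 425 with loess centring. Of 276 list medians under an alternative, 2 reversed, both when all measured members entered: Notch signalling went from 0.20 to -0.033, and the neuron and liver markers from -0.27 to 0.084, where dim members were added. The same setting moved 4 more medians without a change of sign: immediate-early genes from -0.45 to -0.67, osteoblast genes from -0.55 to -0.15, stem-cell surface and efflux genes from -0.62 to -0.19 and pluripotency factors from -0.69 to -0.33. None of the 180 named genes reversed under the 5 settings run on them, and 26 of 900 values moved, 25 of them towards 0 with log2(value + 50), which shrinks dim genes by construction. The cell division medians stayed positive and the integrin median negative under every setting run. No paired analysis was possible because each condition has 1 array and no replicate number, and no array could be left out. The lack of detection calls limits what can be said of dim genes.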

Other observations

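Beyond the gene lists of the report, a pair of families was noticed among the named differences and then listed in full, so their counts describe these arrays and support nothing. Genes of the lysosome were mostly dimmer with TGF-beta1 than under hypoxia. Of 38 above the floor (51 measured) 17 were at least 1.5-fold lower and 2 higher, and the median was -0.45. GPNMB, a lysosomal membrane glycoprotein that is also made by osteoblasts, read 976 with TGF-beta1, 3368 under hypoxia and 2304 untreated (-1.79). CTSB, a cysteine protease, read 792, 2320.3 and 1817 (-1.55). SMPD1, acid sphingomyelinase, read 676, 1647 and 1356 (-1.29). Of the higher members, the glycosidase GLA differed by 0.93.

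Genes of nuclear transport lay in the other direction. With TGF-beta1, 17 of the 46 above the floor (48 measured) were higher by 1.5-fold or more and 1 was lower, with a median of 0.48. IPO7, an importin, read 519.6 with TGF-beta1, 179.8 under hypoxia and 131 untreated (1.53). CSE1L, which returns importin alpha to the cytoplasm, read 4261, 1951 and 1937 (1.13). NUP155, a scaffold of the nuclear pore, read 1310.4, 559.6 and 876 (1.23). TNPO1, transportin, was the lower member (-0.70).

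By chromosome, the median difference ran from -0.09 on chromosome 14 to 0.21 on chromosome 9. On chromosome 9, 20 of 323 genes (6.19%) were at least 2-fold higher and 8 (2.48%) lower, and on chromosome 15 the shares were 2.28% and 9.51%. The features that were not named differed about as often as the named ones: at 2-fold, 362 (3.14%) of the 11520 above the floor were higher and 727 (6.31%) lower, against 332 and 549 of 9117 named features.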
